A study of Oryza sativa Japonica Group with 8 samples.

Results

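Type-A response regulators are small receiver-domain proteins of the cytokinin signalling pathway, and 9 of the rice genes that encode them are described here across the rice pistil. They were taken by locus identifier from the 38726 features of a gene-level count table. The members are OsRR1 (Os04g0442300), OsRR2 (Os02g0557800), OsRR3 (Os02g0830200), OsRR4 (Os01g0952500), OsRR5 (Os04g0524300), OsRR6 (Os04g0673300), OsRR7 (Os07g0449700), OsRR9 (Os11g0143300) and OsRR10 (Os12g0139400). By their identifiers they lie on chromosomes 4, 2, 2, 1, 4, 4, 7, 11 and 12. A RefSeq gene table on another assembly lists 8 of these names, all except OsRR3, each on the chromosome that the identifier gives.

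Cytokinins are plant hormones that promote cell division and help to set the size of shoot and floral meristems. Histidine kinase receptors pass a phosphate group through phosphotransfer proteins to nuclear type-B response regulators, which are transcription factors. Type-A genes are among the first targets that type-B proteins switch on, and their products dampen the same pathway, so their transcripts are widely used as a readout of cytokinin response. In rice, OsRR6 overproduction has been linked to stunted plants with poorly formed panicles. OsRR2 is a gene repressed by WOX11 in crown roots, and OsRR1 has been described as a partner of the flowering regulator Ehd1. OsRR9 and OsRR10 are near-identical copies on the duplicated ends of chromosomes 11 and 12 and have been linked to salt tolerance.

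All 8 libraries came from untreated wild-type pistils of Oryza sativa ssp. Japonica, cultivar Nipponbare, at the heading stage, and polyA RNA was sequenced. There were 3 libraries of whole-cell RNA from the upper part of the pistil, 3 from the lower part and 2 of RNA from nuclei sorted by propidium iodide fluorescence. The labels do not say where the pistil was divided, how many pistils were pooled, or whether each replicate is its own set of plants, so the p-values rest on the spread between libraries, which may be technical. Whole-cell libraries were made with a directional kit and nuclei libraries with a SMART-Seq kit, so the kit cannot be told apart from the compartment.

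Total counts ran from 9268151 to 35518142 per library. The 3 counts taken as a floor correspond to 0.273 and 0.377 CPM (counts scaled to library size) in the nuclei libraries and to 0.0754 to 0.135 CPM in whole cells. All 5 pistil marker loci had counts in every library, with sums of 1146 to 2402 CPM. The 3 lodicule and stamen marker loci were present as well, at 783 to 1145 CPM in upper, 326 to 993 CPM in lower and 248 to 496 CPM in nuclei libraries. The 5 green leaf marker loci summed to 197 to 995 CPM in whole cells and to 79.1 and 182 CPM in nuclei, and the 5 tapetum and pollen wall marker loci to 4.29 to 13.9 CPM. No marker locus was at 0 in all libraries. The marker lists were compiled from general knowledge, and their identifiers were not checked against gene names. Lower replicate 3 stood apart: across genes its mean Spearman correlation with upper libraries was 0.929, and that with its own group 0.897. It also had the highest lodicule and stamen marker sum of the lower group. This held for Os06g0712700 (676 CPM, beside 269 and 158 CPM in lower replicates 1 and 2) and Os01g0883100 (239 CPM, beside 141 and 94.3 CPM). Os05g0423400, at 79.2 CPM, lay between the other lower libraries (80.0 and 73.1 CPM). The sum over 111 organelle genes was 3.91 to 12.7 CPM in whole cells and 147 and 1122 CPM in nuclei replicates 1 and 2.

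Of the 9 members, 7 had counts in every library. Those 7 passed the filter on low counts among the whole-cell libraries, and OsRR7 passed only once the nuclei libraries were included. OsRR5 passed in neither comparison. CPM values below use library sizes scaled by TMM (a correction for differences in RNA composition) over all 8 libraries. Gene lengths were not used, so levels are compared between libraries for 1 gene and not between genes.

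**Figure D1:**
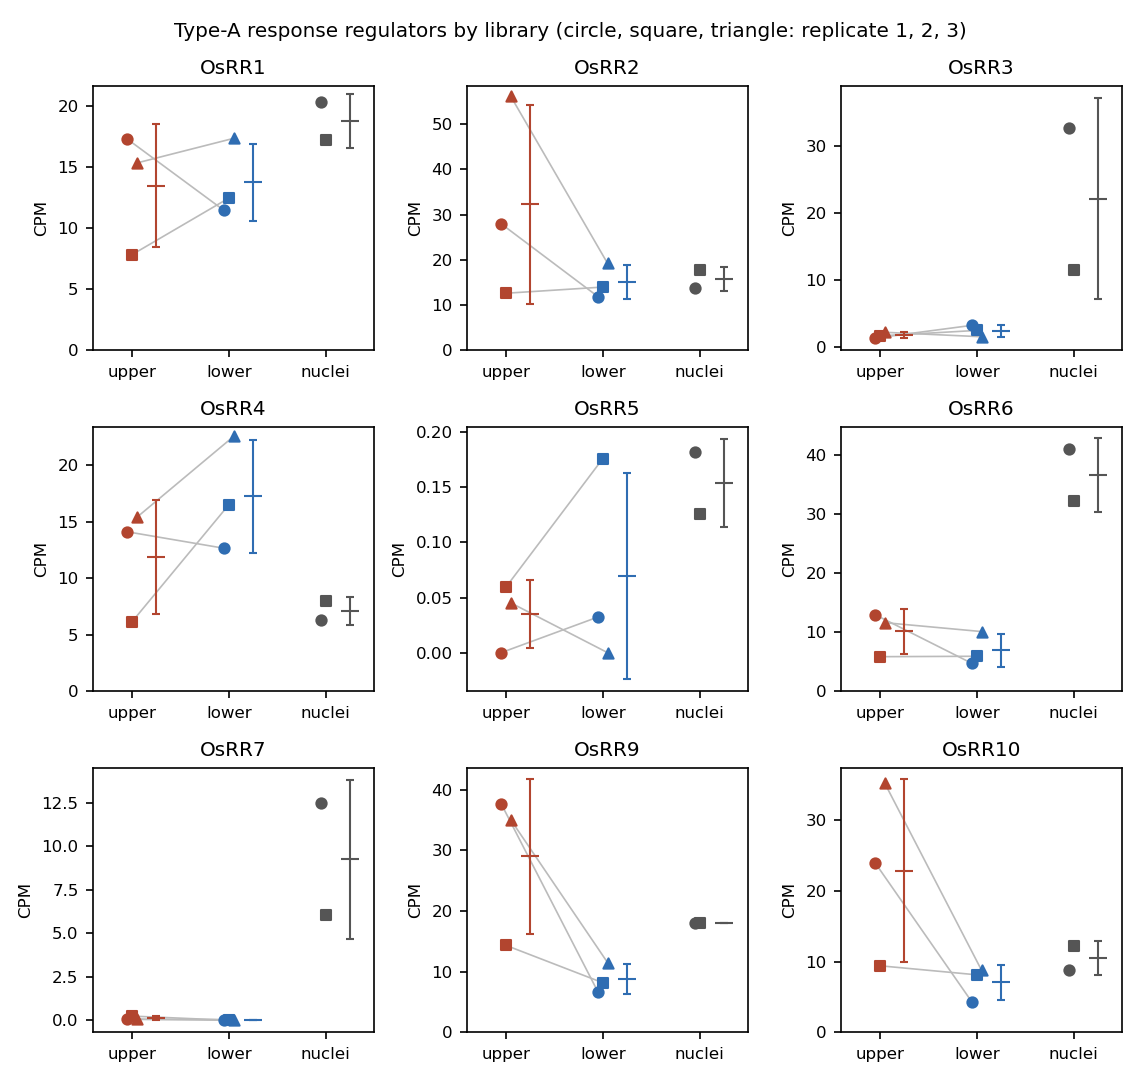
CPM of each of the 9 members in the upper, lower and nuclei libraries, with a linear axis of its own for each gene. Points are libraries (circle, square and triangle for replicates 1, 2 and 3), grey lines join upper and lower libraries of the same number, and bars are the mean and SD. OsRR3, OsRR6 and OsRR7 lie higher in both nuclei libraries than in all whole-cell libraries, and OsRR9 and OsRR10 lie higher in all upper than in all lower libraries.

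The first question was which members differ between sorted nuclei and whole cells. OsRR3, OsRR6 and OsRR7 were higher in nuclei, by 10.5-, 4.36- and 205-fold on the fitted scale, and no member was called lower. A gene was called where the edgeR quasi-likelihood test of nuclei against the mean of the parts gave a Benjamini-Hochberg adjusted p under 0.05 over all genes and the log2 fold change was 1 or more in size. Thus 3 of the 8 members tested were called higher, where 14.1% of all 31858 genes tested were called higher and 8.76% lower. For the 0 called lower, edgeR gave 0 members at an unadjusted p under 0.05 and DESeq2 also called 0. OsRR7 reached the test only through its nuclei counts, a selection that favours a higher value in nuclei. Among the 7 members that also passed the filter in whole cells, 2 were called higher (OsRR3 and OsRR6) and 0 lower, where 12.3% and 9.35% of the 29848 genes that passed both filters were called. The median log2 fold change of these 7 was 0.18, beside -0.11 over those genes. Both nuclei libraries lay above all whole-cell libraries for the same 3 members, as they did for 17.6% of all genes tested. In bulk samples, fewer cells of a type and less RNA per cell cannot be told apart.

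OsRR7 was close to absent from the whole-cell libraries. It had 2, 8 and 1 counts in upper replicates 1, 2 and 3, 0, 0 and 1 counts in lower replicates 1, 2 and 3, and 137 and 48 counts in nuclei replicates 1 and 2. In CPM the nuclei libraries reached 12.5 and 6.02, whereas the highest whole-cell library, upper replicate 2, stood at 0.238 CPM. The ratio of pooled counts was 73.2 between nuclei and the upper part (95% counting interval from 40.0 to 149). Against the lower part it rested on a single lower count, with a ratio of 947 (168 to 37622). The fitted log2 fold change against the mean of the parts was 7.68 (adjusted p = 0.000377 by edgeR, SE 0.82). Since the gene was tested only because of its nuclei counts, this p-value is no independent support. Both nuclei replicates were thus far above the floor, while 5 of the 6 whole-cell libraries were at or under 2 counts. Without upper replicate 2 the ratio to the upper part was 159 (53.5 to 778), and without nuclei replicate 1 it was 45.2 (23.1 to 96.5). Without lower replicate 1, lower replicate 2 or nuclei replicate 1 the ratio to the lower part was 645, 559 and 585. Without lower replicate 3 no lower count was left, and the 95% counting interval of the ratio began at 185. Leaving out upper replicate 2 or nuclei replicate 1 moved the fitted log2 fold change to 8.16 and 7.08. Without lower replicate 3 the fit gave 8.49, but with no lower count left this value has no usable SE. Between the parts, the pooled ratio of upper to lower was 12.9 (1.88 to 557), and without upper replicate 2 it was 5.96 with an interval that includes 1 (0.479 to 313).

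OsRR3, whose overproduction in rice has been reported to lower cytokinin sensitivity, had substantial counts in both kinds of library. Upper libraries held 1.39, 1.72 and 2.26 CPM, lower libraries 3.30, 2.54 and 1.60 CPM, and nuclei libraries 32.8 and 11.5 CPM. Both nuclei libraries were well above the whole-cell range, yet they differed from each other by 2.84-fold. The log2 fold change was 3.40 (adjusted p = 0.00123 by edgeR, SE 0.46). It was 2.45 without nuclei replicate 1 (adjusted p = 0.0297) and 3.94 without nuclei replicate 2 (adjusted p = 0.0027), so the call was kept with either library, and without nuclei replicate 1 its linear size moved by more than 1.5 times. The part-wise log2 fold changes were 3.63 (SE 0.58) against upper and 3.16 (SE 0.57) against lower.

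OsRR6 had 41.0 and 32.3 CPM in the nuclei libraries. Upper libraries held 13, 5.88 and 11.6 CPM, and lower libraries held 4.75, 5.96 and 10.1 CPM. The nuclei replicates were within 1.27-fold of each other and above every whole-cell library. Its fitted log2 fold change was 2.13 (adjusted p = 0.00573 by edgeR, SE 0.39), with 1.85 (SE 0.48) against the upper and 2.40 (SE 0.48) against the lower part. Without nuclei replicate 1 the call was lost, although the log2 fold change was 1.94. In the alternatives with both nuclei libraries, the adjusted p ran from 0.0035 to 0.0347 by edgeR and was 0.000194 by DESeq2. With the replicate number as a block OsRR3, OsRR6 and OsRR7 were again called, beside 16% of all genes called higher in that fit. The labels do not link a nuclei library to whole-cell libraries of the same number, and such a link was not tested.

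The remaining 5 tested members were not called between nuclei and parts. OsRR4 had the lowest fitted value, with 6.28 and 8.03 CPM in nuclei. Its upper libraries held 14.1, 6.15 and 15.4 CPM and its lower libraries 12.7, 16.5 and 22.6 CPM. Both nuclei libraries were thus under all lower libraries, while upper replicate 2 lay as low as nuclei. Its log2 fold change was -1.0 (adjusted p = 0.144 by edgeR, SE 0.47, 95% interval from -2.04 to 0.04). For OsRR1, OsRR2, OsRR9 and OsRR10 the log2 fold changes were 0.46, -0.48, 0.18 and -0.28, and each 95% interval included 0. The widest of these intervals, that of OsRR10, ran from -1.43 to 0.88, and thus holds differences of more than 2-fold. In these 4 genes the nuclei libraries overlapped the whole-cell range. OsRR9 was at 18.0 and 18.1 CPM in nuclei, above all lower libraries, with a log2 fold change against the lower part of 1.04 (adjusted p = 0.15 by edgeR, SE 0.47).

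The 6 loci with identifier numbers next to those of OsRR3, OsRR6 and OsRR7 had smaller nuclei differences than these members. The listed loci before and after OsRR7, Os07g0449100 and Os07g0450000, had log2 fold changes of 0.00 (SE 0.41) and 0.39 (SE 0.39). Those beside OsRR3, Os02g0830100 and Os02g0830300, had -0.59 (SE 0.59) and 0.79 (SE 0.51). Those beside OsRR6, Os04g0673050 and Os04g0673400, had 0.09 (SE 0.37) and 0.61 (SE 0.52). None of these 6 neighbours was called, with edgeR adjusted p-values from 0.279 to 0.995. Of the loci beside the other members, Os11g0143400, next to OsRR9, was called lower in nuclei, with a log2 fold change of -2.39 (adjusted p = 0.0066 by edgeR, SE 0.46). The organelle sum was higher in nuclei replicate 2, as were OsRR2, OsRR4 and OsRR10. The called members OsRR3, OsRR6 and OsRR7 were higher in replicate 1, and so was OsRR1. The part of the organelle sum in the nuclei differences was not tested, nor was that of the lower leaf marker sum in nuclei.

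**Figure D2:**
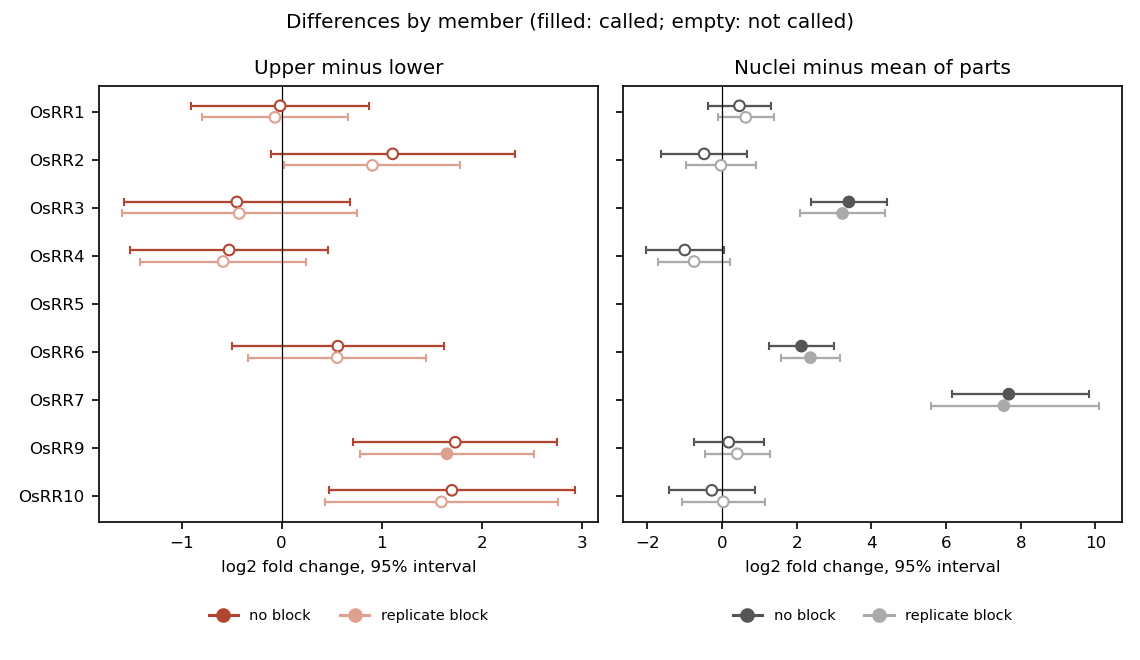
Log2 fold change of each tested member with its 95% interval, for upper minus lower (left) and nuclei minus the mean of the parts (right), without and with the replicate number as a block. Filled points were called and empty points were not. OsRR3, OsRR6 and OsRR7 were called in nuclei in both fits, and OsRR9 was called between the parts with the block alone.

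The next question was which members differ between upper and lower pistil. OsRR9 and OsRR10 were higher in every upper than in every lower library, by about 3-fold in the fit, but neither passed the test without the replicate block. The labels give replicate numbers but do not say that equal numbers pair the parts. With that number as a block OsRR9 was called higher in the upper part. Without it edgeR called 0 of the 7 members tested in either direction, where 0.811% of all 29848 genes tested were called higher and 0.00335% lower. For these zeros, 2 members (OsRR9 and OsRR10) were higher at an unadjusted p under 0.05 and 0 were lower, and DESeq2 called 1 member higher, OsRR9 (adjusted p = 0.0164), and 0 lower. With the block 1 member was called higher and 0 lower, where the background was 5.12% higher and 3.02% lower. For this 0, edgeR with the block gave 0 members lower at an unadjusted p under 0.05. The median log2 fold change of the 7 members was 0.56, beside -0.02 over all genes tested. Scaling by library size alone moved the median over all genes by -0.32, and OsRR9 and OsRR10 had 1.42 and 1.37.

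OsRR9 had 37.7, 14.4 and 35.0 CPM in upper replicates 1, 2 and 3. The lower libraries had 6.69, 8.19 and 11.5 CPM. The groups did not overlap, and upper replicate 2 came closest to the lower part. Within the numbered pairs the upper library was higher by 5.64-, 1.75- and 3.04-fold. This gave a log2 fold change of 1.74 (adjusted p = 0.155 by edgeR, SE 0.44), and with the block 1.65 (adjusted p = 0.0468 by edgeR, SE 0.35). This call was close to the threshold: with the block and pair 1, 2 or 3 left out, the edgeR adjusted p was 0.0305, 0.0944 and 0.0548, and the log2 fold changes were 1.26, 2.05 and 1.62. Over all alternatives the adjusted p ran from 0.0164 by DESeq2 to 0.668 in the edgeR test against a 2-fold change.

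OsRR10 followed the same pattern. Its upper libraries had 24, 9.42 and 35.2 CPM and its lower libraries 4.30, 8.14 and 8.77 CPM. The groups did not overlap, although the lowest upper library, replicate 2, was only 1.16-fold above its lower partner. The log2 fold change was 1.70 (adjusted p = 0.239 by edgeR, SE 0.53), and 1.60 (adjusted p = 0.084 by edgeR, SE 0.47) with the block. Of all genes tested, 9.91% had every upper library above every lower library.

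The treatment of reads that match both OsRR9 and OsRR10 was not given in the sources used here, so the split between these copies is uncertain. Their summed level avoids that split. It was 61.7, 23.8 and 70.3 CPM in upper, 11, 16.3 and 20.3 CPM in lower and 26.8 and 30.2 CPM in nuclei libraries. Both nuclei libraries lay above all lower libraries and above upper replicate 2. Fitted as 1 row, the sum had a log2 fold change between the parts of 1.72 (adjusted p = 0.172 by edgeR, SE 0.46), and of 1.63 (adjusted p = 0.0578 by edgeR, SE 0.39) with the block. The call of OsRR9 was thus not reached for the sum. The count ratio of OsRR9 to OsRR10 was 1.36 ± 0.32 in upper (SD, n = 3), 1.29 ± 0.28 in lower (SD, n = 3) and 2.04 and 1.48 in nuclei libraries. The loci next to these copies by identifier number had values near 0 between the parts. Beside OsRR9, Os11g0143266 and Os11g0143400 had log2 fold changes of -0.19 and 0.04, and beside OsRR10, Os12g0139350 and Os12g0139500 had -0.16 and -0.07. Larger differences between the parts were fitted for Os02g0830300, next to OsRR3, and Os04g0673400, next to OsRR6, at -1.51 and -1.56, and neither was called. The loci beside OsRR4, Os01g0952300 and Os01g0952600, had -0.66 and -0.54, near the -0.52 of OsRR4 itself, and neither was called.

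OsRR2 was variable in the upper part, with 28.0, 12.6 and 56.1 CPM. The lower libraries stood at 11.9, 14.0 and 19.2 CPM, and nuclei at 13.8 and 17.7 CPM. Upper replicate 3 was the highest library and upper replicate 2 lay within the lower range. In the fit, the log2 fold change was 1.11 (adjusted p = 0.393 by edgeR, SE 0.52, 95% interval from -0.11 to 2.33). With the block it was 0.91 (adjusted p = 0.14 by edgeR, SE 0.36), and without upper replicate 3 it was 0.46.

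OsRR1 and OsRR4 gave no call between the parts. OsRR1 had 17.3, 7.82 and 15.3 CPM in upper, 11.4, 12.4 and 17.3 CPM in lower and 20.3 and 17.2 CPM in nuclei libraries. Its group means of 13.5 and 13.7 CPM in the parts differed by less than either SD. The log2 fold change between the parts was -0.01 (95% interval from -0.91 to 0.88). For OsRR4, mean CPM was 11.9 ± 5.01 in upper and 17.2 ± 4.99 in lower libraries (SD, n = 3 each), with a log2 fold change of -0.52 (95% interval from -1.51 to 0.46). OsRR6 and OsRR3 were not called either, with log2 fold changes of 0.56 (95% interval from -0.50 to 1.62) and -0.45 (-1.58 to 0.68).

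OsRR5 was at the limit of detection. It had 0, 2 and 1 counts in upper, 1, 7 and 0 counts in lower and 2 and 1 counts in nuclei libraries. Only lower replicate 2, at 0.176 CPM, was above the floor of 3 counts. Differences of OsRR5 between groups were not detectable at this depth.

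By mean CPM, the order of the groups differed between members. OsRR9, OsRR10 and OsRR2 were highest in upper libraries, with 29.0 ± 12.8, 22.9 ± 12.9 and 32.2 ± 22.1 CPM (SD, n = 3). Nuclei followed with 18.0 ± 0.04, 10.5 ± 2.37 and 15.8 ± 2.73 CPM (SD, n = 2), and lower libraries were last with 8.80 ± 2.47, 7.07 ± 2.42 and 15.0 ± 3.77 CPM (SD, n = 3). In these orders nuclei and upper did not differ beyond their spread, since their libraries overlapped. Nuclei and lower overlapped for OsRR2, whereas for OsRR9 and OsRR10 both nuclei libraries were above all lower libraries. OsRR4 ran from lower over upper to nuclei, and upper overlapped both neighbours. OsRR1 was highest in nuclei, but its nuclei libraries overlapped both parts. OsRR3, OsRR6 and OsRR7 were highest in nuclei, beyond the spread of both parts.

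Upper replicate 2 was the lowest upper library for 6 of the 7 tested members, the exception being OsRR3, and 36.3% of all genes tested were lowest there. Lower replicate 3 was the highest lower library for 6 of the 7, again all but OsRR3, as for 33.0% of all genes tested. The members' summed level was 136, 58.3 and 171 CPM in upper, 55.1, 67.9 and 91.1 CPM in lower and 154 and 123 CPM in nuclei libraries. Upper replicate 2 and lower replicate 2 also had the highest leaf marker sums of their groups, 473 and 995 CPM. The part of leaf, lodicule and stamen material in the differences between libraries was not tested. Without lower replicate 3, OsRR9 and OsRR10 had log2 fold changes of 1.98 and 1.91 (edgeR adjusted p = 0.0694 and 0.114).

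Ratios between members within a library do not depend on how libraries are scaled. Several of them, most with OsRR4 as a shared denominator, separated the parts. OsRR4 was taken as denominator after its values had been seen, so the ratios are a description and carry no test. Of the 7 tested members it had the lowest log2 fold change between the parts, at -0.52. A low denominator raises all ratios to OsRR4 together, so their separations are not independent of each other. Even OsRR1, at -0.01 between the parts, separated in this way. How often ratios of other genes separate the parts was not tested. There were 2.67, 2.33 and 2.28 OsRR9 counts per OsRR4 count in upper libraries and 0.528, 0.496 and 0.510 in lower libraries. Upper replicate 2 and lower replicate 3, which stood out in level, thus lay with their own groups in this ratio. The nuclei libraries, at 2.87 and 2.25, were on the side of the upper part in this ratio. OsRR4 itself was low in nuclei, at 6.28 and 8.03 CPM. With OsRR1 as denominator the nuclei ratios of OsRR9 were 0.888 and 1.05. These lay between the upper (2.18, 1.84 and 2.29) and lower libraries (0.585, 0.659 and 0.664). OsRR10 to OsRR4 gave 1.70, 1.53 and 2.29 in upper and 0.339, 0.493 and 0.389 in lower libraries. OsRR2 to OsRR4 gave 1.98, 2.05 and 3.65 against 0.939, 0.848 and 0.852. OsRR6 to OsRR4 was 0.878 ± 0.11 in upper and 0.395 ± 0.05 in lower libraries (SD, n = 3 each), and it stood at 6.54 and 4.02 in nuclei. OsRR1 to OsRR4 was 1.16 ± 0.15 in upper against 0.808 ± 0.08 in lower libraries (SD, n = 3 each). OsRR3 to OsRR4 overlapped between the parts, with 0.0981, 0.280 and 0.147 in upper and 0.260, 0.154 and 0.0707 in lower libraries, and nuclei stood above both at 5.22 and 1.44.

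**Figure D3:**
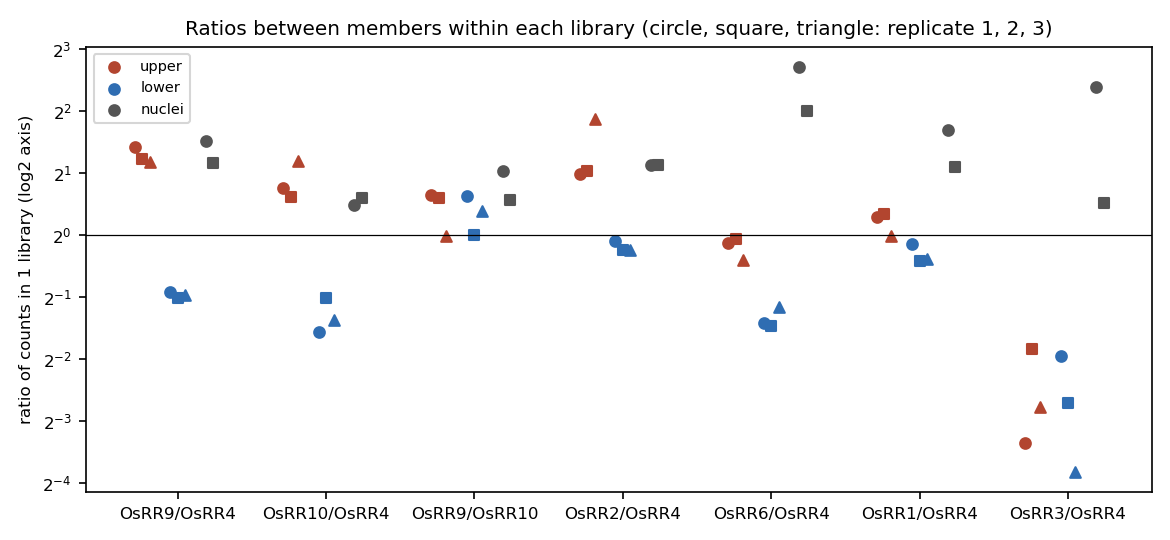
Ratio of the counts of 2 members within each library, on a log2 axis, for upper, lower and nuclei libraries (circle, square and triangle for replicates 1, 2 and 3). The ratios of OsRR9, OsRR10, OsRR2, OsRR6 and OsRR1 to OsRR4 lie higher in all upper than in all lower libraries, and the ratios of OsRR3 to OsRR4 and of OsRR9 to OsRR10 overlap between the parts.

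Profiles were also compared by the root mean square difference of log2(CPM + 1), centred on each gene's own mean, over the 8 libraries. Among pairs of members the smallest difference was that of OsRR9 and OsRR10, at 0.30, which reads shared by the copies could lower. Next came OsRR2 with OsRR10 at 0.32, then OsRR1 with OsRR5 and OsRR3 with OsRR7, both at 0.39. OsRR5 in all libraries and OsRR7 in whole cells lay far under 1 CPM, where the added 1 flattens a profile. Among 31850 other genes, the nearest to OsRR6 was Os02g0473200, at 0.18 against a median of 1.14. It had 27.2, 15.0 and 29.4 CPM in upper, 14.3, 17.4 and 34.8 CPM in lower and 106 and 77.6 CPM in nuclei libraries. The second nearest was Os05g0403000, at 0.21. For OsRR9 the nearest were Os05g0568300 and Os01g0838600, at 0.23 and 0.26. For OsRR2 they were Os01g0736100 and Os10g0552400, at 0.15 and 0.16. Both of these, as well as Os01g0838600 and Os05g0403000, had under 0.7 CPM in all lower libraries, where the added 1 damps differences.

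The pathway around the type-A genes was read from a list of 13 other cytokinin signalling loci. The list was compiled from general knowledge of the pathway. The files do not pair its identifiers with names, so loci are given by identifier and the class under which they were listed. Between the parts, 1 of the 11 tested was called higher in the upper part and 0 lower, where edgeR gave 0 lower at an unadjusted p under 0.05, against a background of 0.811% and 0.00335%. Of 12 tested in nuclei 1 was called higher and 1 lower, and the one called higher, Os06g0647200, had reached the test only through its nuclei counts. Of the 11 that also passed the filter in whole cells 0 were called higher and 1 lower, beside 12.3% and 9.35% of genes that passed both filters. For this 0, edgeR gave 1 locus higher at an unadjusted p under 0.05, Os02g0738400. The median log2 fold changes of the 11 were 0.23 between the parts and -0.12 in nuclei, beside -0.02 and -0.11 over all genes that passed.

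The locus called between the parts was Os01g0904700, listed as a type-B regulator, the class that activates type-A genes. It had 59.5, 65.1 and 56.9 CPM in upper and 22.4, 23.4 and 20.6 CPM in lower libraries, a tight 2.65-, 2.78- and 2.76-fold in the numbered pairs. The log2 fold change was 1.47 (adjusted p = 0.0438 by edgeR, SE 0.24), and 1.47 (SE 0.16, adjusted p = 0.0132) with the block. In nuclei it stood at 7.92 and 10.0 CPM, below all whole-cell libraries, with a log2 fold change of -2.03 (adjusted p = 0.00281 by edgeR, SE 0.33). Its call between the parts was lost when any of the 6 libraries was left out (edgeR adjusted p from 0.0554 to 0.207, log2 fold changes from 1.41 to 1.52). It was also lost with library size as the only scaling (adjusted p = 0.154), under the block without pair 2 (0.105), and in a test against a 2-fold threshold (0.478). DESeq2 kept the call (adjusted p = 9.33e-05). So did edgeR with RLE size factors (0.0422), without the filter (0.0493), and under the block without pair 1 or pair 3 (0.00706 and 0.0237).

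The other locus called in nuclei was Os06g0647200, also listed as type-B, with 25 and 11 counts in nuclei, 1, 2 and 0 counts in upper and 4, 11 and 0 counts in lower libraries. Lower replicate 2, a deeper library, thus had as many counts as nuclei replicate 2. It passed the filter through nuclei, and its log2 fold change was 4.60 (adjusted p = 0.0125 by edgeR, SE 1.05). Its call was lost without nuclei replicate 1 (edgeR adjusted p = 0.119) and against the lower part alone (0.0682). The 4 loci listed as receptor histidine kinases showed small differences, with log2 fold changes from -0.07 to 0.38 between the parts and from -0.40 to 0.84 in nuclei. None of them was called. The highest of these, Os02g0738400, had 60.1 and 65.0 CPM in nuclei against 29.7 to 43.1 CPM in whole cells (edgeR adjusted p = 0.0558). Of the 2 loci listed as phosphotransfer proteins, Os09g0567400 had 69.4, 72.0 and 99.6 CPM in upper and 35.6, 52.6 and 57.8 CPM in lower libraries, with no overlap. It was not called (log2 fold change 0.74, SE 0.31, edgeR adjusted p = 0.351). Os03g0224200, listed as type-B, showed no overlap either and was not called (log2 fold change 0.61, SE 0.25, edgeR adjusted p = 0.341). Its upper libraries had 81.1, 67.5 and 70.9 CPM and its lower libraries 43.6, 50.5 and 51.7 CPM. Such a separation, with upper higher, held for 9.91% of all genes tested. The further type-A locus on the list, Os02g0631700, stayed at or under 0.251 CPM in every library and was not tested.

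**Figure D4:**
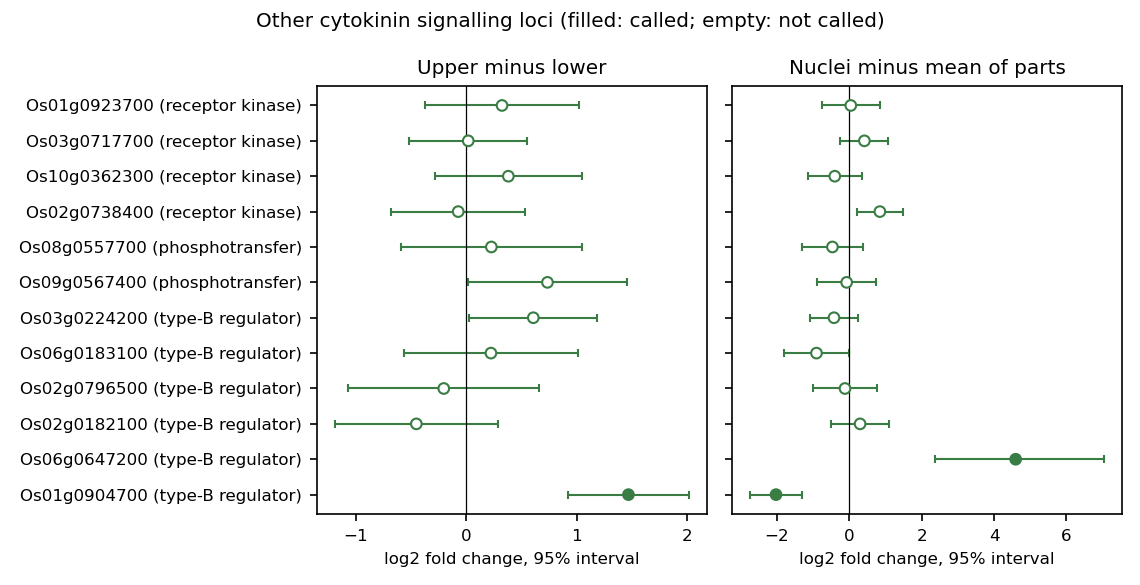
Log2 fold change with its 95% interval for the 12 loci listed as receptor histidine kinases, phosphotransfer proteins and type-B response regulators, for upper minus lower (left) and nuclei minus the mean of the parts (right). Filled points were called. Os01g0904700 was called higher in upper and lower in nuclei, Os06g0647200 was called higher in nuclei, and most other intervals include 0.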

How the data were processed

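PolyA RNA was sequenced from 8 rice pistil libraries. The counts are as the authors deposited them: unnormalized whole numbers for each feature, in 1 table whose columns carry the sample names. The submitters' processing notes name STAR, featureCounts, DESeq2 and the build IRGSP-1.0. Versions, the use of strand, and the treatment of reads matching several places or overlapping genes are not given in the sources used here.

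Counts were tested with edgeR 4.0.16 in R 4.3.3 (quasi-likelihood test, TMM scaling, edgeR's filter on low counts) over all genes, with 6 libraries for upper against lower and all 8 for nuclei; p-values were adjusted by Benjamini-Hochberg. SEs and 95% intervals derive from the quasi-likelihood F. DESeq2 1.42.0, other scalings, no filter, a test against a 2-fold change, the replicate block and leaving out each library were alternatives. Leaving out pairs under the block and summing OsRR9 with OsRR10 were added after the data were seen. The fits were also run on simulated counts, with changes added to genes of higher counts and no effect of the replicate number. That run does not bear on genes as low as OsRR7 or on the choice of the block.

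Members, lists and tests were chosen with earlier results of these data known. All 9 members are named. Of the signalling list, called loci are named by rule. Os02g0738400, Os09g0567400, Os03g0224200 and Os02g0631700 were added after their values were seen. Likeness was computed for the 3 members with the highest mean CPM, with 2 genes each. The labels do not say that equal replicate numbers pair the parts. Deviations from the group means correlated at 0.373, 0.694 and 0.674 for numbers 1, 2 and 3, and at most 0.0495 for unlike numbers. Deviations within a group sum to 0, which lowers the values of unlike numbers where like numbers correlate. What libraries of the same number share is not stated. Counting intervals (exact binomial, 95%) and floors cover counting error alone. Sequences of the members were not used here.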

Additional observations from a re-analysis of the deposited data

How the results depend on the processing

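The nuclei calls of OsRR3 and OsRR7 held under all alternatives run, and that of OsRR6 under all but the omission of nuclei replicate 1; leaving out 1 library gave 2 to 3 members higher in nuclei and 0 lower (at unadjusted p, 0 to 1 lower). OsRR7 passed the filter only through its nuclei counts, so its repeated calls are no independent support. Between the parts, leaving out 1 library gave 0 members in either direction by edgeR (at unadjusted p, 1 to 3 higher and 0 lower). DESeq2, the replicate block, and the block without pair 1 each called 1 member higher, OsRR9; the cause was not tested.

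Counts over all genes moved more than those of members. Between the parts, 242 genes were called higher and 1 lower; DESeq2 called 1293 and 397, the replicate block 1529 and 902, and the block without pair 1, 2 or 3 called 2284, 98 and 2289 higher and 1265, 0 and 644 lower (2603 lower at unadjusted p for the 0). Library size alone gave 3 lower and no filter 2 lower. A test against a 2-fold change gave 95 and 0 (394 lower at unadjusted p). Leaving out 1 library gave 0 to 916 higher, the 0 without lower replicate 1 (1589 at unadjusted p) and the 916 without lower replicate 3, and 0 to 42 lower (693 to 2404 at unadjusted p). In nuclei, 4502 were higher and 2791 lower; DESeq2 called 4306 lower, the block 4394 lower, a test against a 2-fold change 2179 and 845, and the lower part alone as reference 1719 lower. Leaving out 1 library gave 1970 to 4246 higher and 408 to 3191 lower, with both minima without nuclei replicate 1. The causes were not tested, beyond fewer samples in the latter fits.

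Directions turned only for members without a call. Between the parts, OsRR1 had log2 fold changes of -0.24 to 0.26 with 1 library left out (0.26 without upper replicate 2, 0.18 without lower replicate 3) and 0.21 in the block fit lacking pair 2, and OsRR3 had 0.0076 in the block fit lacking pair 1. In nuclei, OsRR10 had 0.032 with the replicate block and 0.57 against the lower part alone, OsRR2 had 0.069 against the lower part alone, and OsRR9 had -0.68 against the upper part alone. The block changed no call of a member other than OsRR9. Of 27 mean CPM values, 26 moved by less than 1 SD when total counts were the only scaling, and OsRR9 in nuclei moved to 16.9 CPM. With 2 nuclei libraries and 3 per part, differences of OsRR5 and levels of OsRR7 in whole cells are limited by counts. Where nuclei are left with 1 library, it is assumed to vary like the other groups.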
